A study of Homo sapiens with 4 samples.

Results

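The protocadherin genes of 22Rv1 cells were followed on 4 whole-transcript arrays. Members were all probe sets with a single gene symbol beginning with PCDH in the platform table, 29 genes with 1 probe set each among 17687 named genes. Of these, 16 belong to the beta cluster on chromosome 5 and 13 are non-clustered, and 0 alpha or gamma cluster genes carried a single symbol there, so those clusters were not analysed here. 22Rv1 is an established human castration-resistant prostate cancer line. Cells kept for 3 days in phenol red-free medium with 2.5% charcoal-treated serum were transfected with a siRNA 48 h before hormone, and RNA was taken after 24 h of ligand. The 4 groups were siOCT1 (siRNA against OCT1, the octamer-binding factor encoded by POU2F1) with 10 nM dihydrotestosterone (DHT), siOCT1 with ethanol vehicle, siControl (control siRNA) with 10 nM DHT, and siControl with vehicle. Each group held 1 array, so no value has a replicate error. POU2F1 signal was not analysed here, and the siRNA's effect on its target is therefore unchecked.

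Protocadherins are single-pass membrane proteins with extracellular cadherin repeats, best known from neurons, where isoforms of the clustered genes bind the same isoform on a neighbouring cell and give each cell a surface identity. Each beta gene is a single coding exon with its own promoter, whereas alpha and gamma variable exons are spliced to shared constant exons. Promoter choice in the clusters is known to depend on CTCF and cohesin, and most clustered promoters hold a conserved element with a CGCT core that CTCF binds. The non-clustered genes lie apart and have separate roles in adhesion and development, and PCDH11Y, under the name PCDH-PC, is known from androgen-resistant prostate cancer cells.

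Because every beta gene has its own start, the sequences around the starts are shown first. RefSeq promoter windows (GRCh38.p14, 250 bases before to 50 after the start) matched 25 of the 29 members, 14 of them beta genes. PCDHB6, PCDHB11, PCDH10 and PCDH20 had no entry. The 9-base word held by most beta windows was GGTGGCGCT, in 13 of 14, all on the gene's strand, and it contains the CGCT core. It was picked for being shared, so the count is a description. On either strand the word stood in 0.501% of 35116 promoter windows of the same length, in 0 of 15 windows of 11 non-clustered members, and in 0 of 13 alpha and 0 of 25 gamma windows. Its first base lay between positions -84 and -2 from the start. Each line gives the word in capitals with 10 bases on each side, 5′ to 3′ on the plus strand of GRCh38.p14, in chromosomal order.
PCDHB2 (chr5:141094545-141094573): agagacgcggGGTGGCGCTgcagccttag
PCDHB3 (chr5:141100394-141100422): gcgaacgcatGGTGGCGCTgttgactaag
PCDHB4 (chr5:141121724-141121752): caagacgcagGGTGGCGCTgcaggctaag
PCDHB5 (chr5:141135180-141135208): taggacgcctGGTGGCGCTgcaggctaag
PCDHB7 (chr5:141172567-141172595): caaaacgcaaGGTGGCGCTgctggctaaa
PCDHB8 (chr5:141177778-141177806): gaggacccgtGGTGGCGCTgcaggataag
PCDHB16 (chr5:141182311-141182339): gagaacgcgtGGTGGCGCTgcaggttaag
PCDHB9 (chr5:141187075-141187103): gaagccacaaGGTGGCGCTgcagactgaa
PCDHB10 (chr5:141192300-141192328): gaggccacacGGTGGCGCTgcaggctaaa
PCDHB12 (chr5:141208644-141208672): ggagacgcgtGGTGGCGCTgcaggataat
PCDHB13 (chr5:141213866-141213894): gaggacgcgtGGTGGCGCTgcaggataag
PCDHB14 (chr5:141223264-141223292): ggagacacatGGTGGCGCTacaggataag
PCDHB15 (chr5:141245315-141245343): gacaacgcatGGTGGCGCTgcaggctaag

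PCDHB1, the first gene of the cluster, lacked the word. Its window was instead the only one of the 14 beta windows with the octamer ATGCAAAT, the element OCT1 is known to bind, which stood in 1.77% of all promoter windows on either strand and in 0 of the 15 non-clustered windows. The octamer is in capitals in this stretch of the plus strand of GRCh38.p14, chr5:141051286-141051313, and its first base lay at position -78 from the start.
PCDHB1: gagtcgctcaATGCAAATtttctttcaa

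Most beta cluster genes had higher signal in siOCT1 cells. Of the 16 genes, 12 were at least 1.5-fold higher in both ligand states and 0 were that much lower, against 7.94% of all 17687 genes higher and 10.7% lower. Of these 12, PCDHB3, PCDHB5, PCDHB14 and PCDHB15 lay below background on every array. The median beta difference (siOCT1 minus siControl) was 1.17 in DHT and 1.78 in vehicle on the log2 scale, against 0.02 and 0.04 over all genes. A gene was counted as measured where its highest signal exceeded 6.51, the median of all genes' highest signals. This left 10 beta genes, of which 9 were higher in both states, and 15 members in all, of which 12 were, where 12.2% of 8843 measured genes were. Members that passed only through their siOCT1 signal had to differ, so these counts are a description. The additive limma fit called 8 beta genes and 10 members higher after Benjamini-Hochberg adjustment over all measured genes, where 9.1% were called. Among those called, PCDHB9, PCDHB10, PCDHB14 and PCDHB16 passed the filter only through siOCT1 arrays. Their calls and adjusted p values are therefore a description too. With all values raised to the highest background, 5 beta genes were higher in both states, against 9.05% of measured genes. Limma then called 5, PCDHB2, PCDHB8, PCDHB9, PCDHB11 and PCDHB13, where 485 of all 7734 genes fitted were called higher. Without that raising, 37.3% of all siRNA calls were higher in siOCT1 cells, or 47.5% with arrays centred on positive controls. The error of the fit has 1 residual degree of freedom, taken from the siRNA-by-ligand difference and not from repeat cultures. In a bulk extract, more expressing cells and more RNA per cell cannot be told apart.

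Background was set on each array as the 95th percentile of 612 negative control probe sets, at 6.91 for siOCT1 with DHT, 7.39 for siOCT1 with vehicle, 6.99 for siControl with DHT and 6.62 for siControl with vehicle. By this measure 3 beta genes lay above background on every array, 3 on 2 arrays, 3 on 1 array and 7 on none. Where 1 side of a pair lay below its background, only a lower bound of the fold is given. The negative controls themselves shifted by -0.01 in DHT and 0.10 in vehicle (median, siOCT1 minus siControl), and 10.6% of them were 1.5-fold higher in both states.

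**Figure D1:**
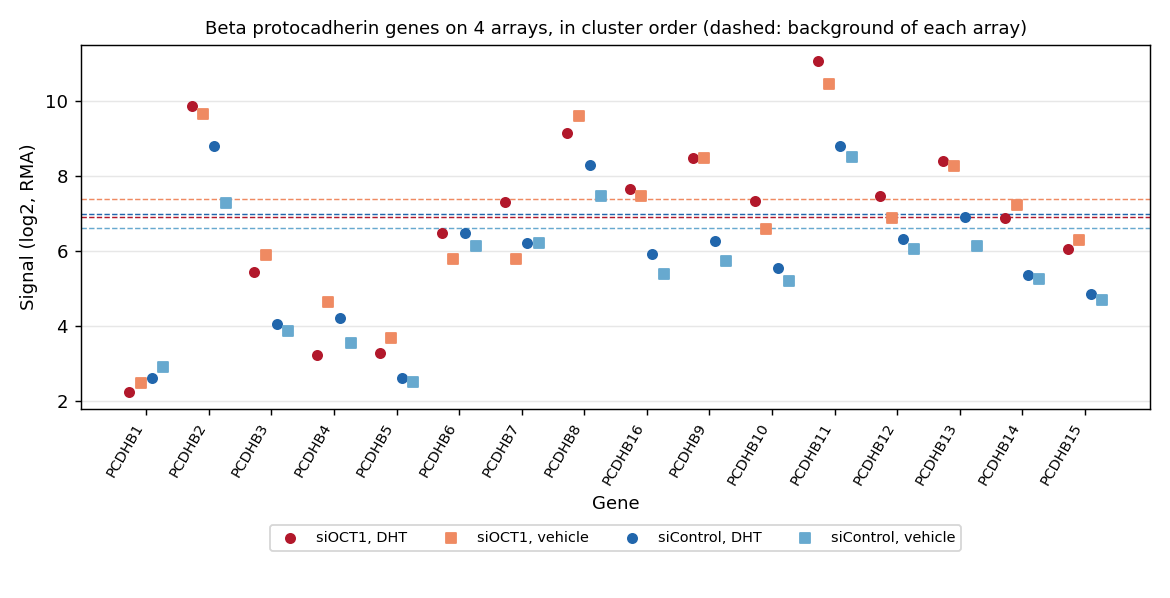
Log2 RMA signal of the 16 beta protocadherin genes, in chromosomal order, on the 4 arrays (1 point per array; dashed lines are the 4 backgrounds, from 6.62 to 7.39). Of the 10 genes above the dim-gene filter, 9 are at least 1.5-fold higher with siOCT1 in both ligand states, against 12.2% of measured genes. PCDHB7 is the exception. Genes that passed the filter only through their siOCT1 signal had to differ, so the count is a description.

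PCDHB11 was one of the 3 beta genes measured above background throughout. It had log2 signals of 11.07 in siOCT1 cells with DHT and 10.47 in siOCT1 cells with vehicle, against 8.80 in siControl cells with DHT and 8.51 in siControl cells with vehicle. Both siOCT1 values lay above both siControl values, a 4.85-fold difference in DHT and 3.89-fold in vehicle. It rose in the limma fit by 2.12 with a standard error of 0.26 (adjusted p = 0.00383). PCDHB2, near the start of the cluster, had 9.88 in siOCT1 with DHT and 9.65 in siOCT1 with vehicle, against 8.81 in siControl with DHT and 7.27 in siControl with vehicle. The siOCT1 values stood close together, and the siControl vehicle array was the low one. The difference was 2.11-fold in DHT and 5.20-fold in vehicle (limma adjusted p = 0.0172). PCDHB8 had 9.16 in siOCT1 with DHT and 9.60 in siOCT1 with vehicle, against 8.29 in siControl with DHT and 7.48 in siControl with vehicle. Again both siOCT1 values lay above both siControl values, with 1.83-fold in DHT and 4.33-fold in vehicle (limma adjusted p = 0.0257).

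A second set crossed the background with the siRNA. PCDHB9 had 8.47 in siOCT1 with DHT and 8.49 in siOCT1 with vehicle, against 6.26 in siControl with DHT and 5.72 in siControl with vehicle. Both siControl values were below background, giving bounds of at least 2.78-fold in DHT and 3.66-fold in vehicle (limma adjusted p = 0.00428). PCDHB13 had 8.41 in siOCT1 with DHT and 8.28 in siOCT1 with vehicle, against 6.90 in siControl with DHT and 6.13 in siControl with vehicle. Its bounds were 2.67-fold in DHT and 3.15-fold in vehicle (limma adjusted p = 0.0103). PCDHB16, which lies between PCDHB8 and PCDHB9, had 7.66 in siOCT1 with DHT and 7.47 in siOCT1 with vehicle, against 5.92 in siControl with DHT and 5.39 in siControl with vehicle. Its bounds were lower, at least 1.59-fold in DHT and 1.80-fold in vehicle, with siOCT1 signals just above background (limma adjusted p = 0.0113, or 0.47 with all values raised to the highest background).

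The fits of PCDHB10, PCDHB12 and PCDHB7 are a description, since these genes passed the filter only through siOCT1 arrays. All exceeded background only in siOCT1 cells with DHT. PCDHB10 had 7.34 there and 6.59 in siOCT1 with vehicle, against 5.54 in siControl with DHT and 5.20 in siControl with vehicle, and it rose by 1.60 in the limma fit (adjusted p = 0.0258). Raised to the highest background, its values were equal on all arrays and could not be fitted, and the same held for PCDHB14. PCDHB12 had 7.47 in siOCT1 with DHT and 6.88 in siOCT1 with vehicle, against 6.31 in siControl with DHT and 6.04 in siControl with vehicle. Its siRNA differences of 1.16 in DHT and 0.84 in vehicle did not pass the limma fit (adjusted p = 0.0732), though they did with arrays centred on positive controls (adjusted p = 0.0448) and without the intensity trend (adjusted p = 0.0493). Raised to the highest background, PCDHB12 had a fitted difference of only 0.04 (limma adjusted p = 0.882). PCDHB7 broke the layout, with 7.31 in siOCT1 with DHT but 5.79 in siOCT1 with vehicle, against 6.21 in siControl cells under both ligands. The siOCT1 values lay on either side of the siControl values, and the fit did not call it (adjusted p = 0.617).

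The other 7 beta genes lay below background on every array, with values from 2.23 to 7.22, and their differences are between signals that are not distinguished from background. Those named here were chosen after their values were seen. PCDHB14 was the eighth gene called by limma, at 6.88 in siOCT1 with DHT and 7.22 in siOCT1 with vehicle, against 5.35 in siControl with DHT and 5.25 in siControl with vehicle (adjusted p = 0.0195). PCDHB3, PCDHB5 and PCDHB15 were too dim for the filter and had positive differences in both states. PCDHB4 and PCDHB6 were also too dim for it and did not. PCDHB1 stood between 2.23 and 2.90 on all arrays.

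**Figure D2:**
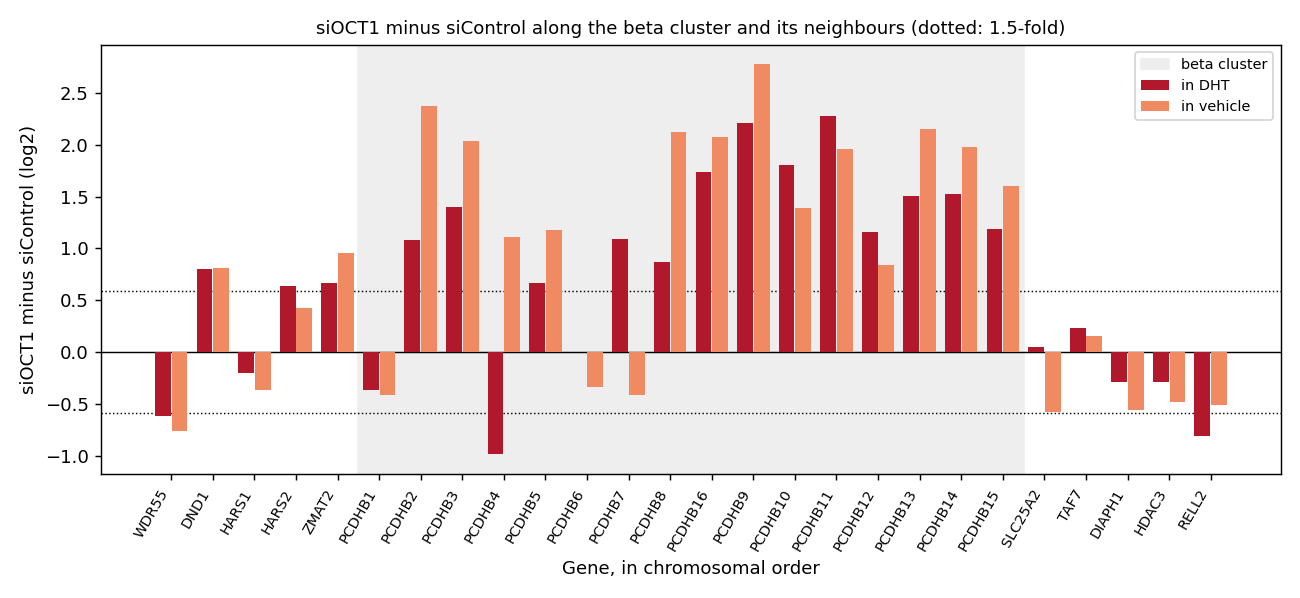
Difference of siOCT1 minus siControl (log2) in DHT and in vehicle for the 16 beta genes and the 5 named protein-coding genes on either side, in chromosomal order (dotted lines mark 1.5-fold). Values above 1.5-fold in both states run from PCDHB8 to PCDHB15. Within that run, PCDHB14 and PCDHB15 lay below background on every array, and PCDHB10 and PCDHB12 on both vehicle arrays. The 5 genes after PCDHB15 do not reach 1.5-fold upwards, while ZMAT2 and DND1 before the cluster do in both states.

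Along the chromosome, the 9 genes from PCDHB8 to PCDHB15 were all past 1.5-fold in both ligand states, with PCDHB2, PCDHB3 and PCDHB5 before them. The order was taken from RefSeq. Of these genes, PCDHB3, PCDHB5, PCDHB14 and PCDHB15 lay below background on every array. PCDHB10 and PCDHB12 exceeded it only in siOCT1 cells with DHT. With values raised to the highest background, 5 beta genes remained past 1.5-fold in both states, so the run then had gaps. Of the 10 nearest protein-coding genes named on the array outside the family, 2 were past 1.5-fold higher in both states and 1 lower. ZMAT2, a zinc finger splicing factor and the nearest of them before PCDHB1, stood at 0.67 in DHT and 0.96 in vehicle and did not pass the limma fit (adjusted p = 0.0613). The other was DND1, below background on every array, at 0.80 in DHT and 0.81 in vehicle. TAF7, a TFIID subunit gene just after the cluster, stood at 0.23 in DHT and 0.15 in vehicle, and DIAPH1, a formin, at -0.29 and -0.56. These neighbours were chosen by position after the members' values were known.

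Among the 13 non-clustered members 5 were 1.5-fold higher with siOCT1 in both states and 1 lower, against 7.94% and 10.7% of all genes. Of the 5, PCDH9, PCDH18 and PCDH11Y lay below background on every array. Only 3 were above background on any array, and 5 were measured. PCDH11X, on the X chromosome, had 7.20 in siOCT1 cells with DHT and 9.56 in siOCT1 cells with vehicle, against 4.43 in siControl cells with DHT and 6.80 in siControl cells with vehicle. It was higher with siOCT1 at either ligand, and lower with DHT at either siRNA. Against siControl its lower bound was 1.16-fold in DHT, and it was 6.74-fold higher in vehicle, a rise of 2.76 with a standard error of 0.31 in the limma fit (adjusted p = 0.00318, or 0.191 with values raised to the highest background). PCDH7, a protocadherin of chromosome 4 that was above background throughout, had 8.88 in siOCT1 with DHT and 10.48 in siOCT1 with vehicle, against 7.38 in siControl with DHT and 8.17 in siControl with vehicle. It rose 2.83-fold in DHT and 4.95-fold in vehicle (limma adjusted p = 0.00793).

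PCDH20 went the other way. It passed the filter only through its siControl DHT signal, so its counts, calls and adjusted p values are a description. It had 5.66 in siOCT1 with DHT and 4.33 in siOCT1 with vehicle, against 8.01 in siControl with DHT and 5.11 in siControl with vehicle. Only the siControl DHT value was above background, so PCDH20 was at least 2.14-fold lower with siOCT1 in DHT, and it did not pass the limma fit (adjusted p = 0.0622). It passed with arrays centred on positive controls (adjusted p = 0.0467) or on negative controls (adjusted p = 0.024). With values raised to the highest background it stood at -0.31 and did not pass (limma adjusted p = 0.331). It was the 1 measured member lower by 1.5-fold in both states, where 18.7% of measured genes were, and the fit called 0 members lower, against 15.3% of measured genes.

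**Figure D3:**
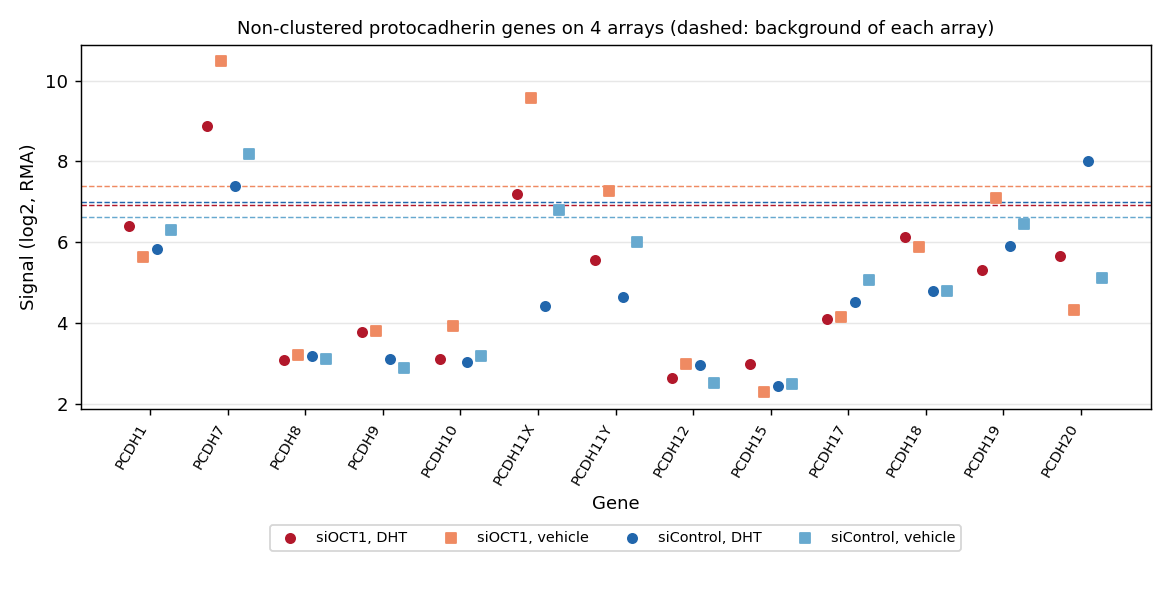
Log2 RMA signal of the 13 non-clustered protocadherin genes on the 4 arrays (1 point per array; dashed lines are the backgrounds). PCDH7, PCDH11X and PCDH20 exceed background on 4, 3 and 1 arrays, and the other 10 stay below it.

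PCDH11Y, the Y-linked copy of PCDH11X, lay below background on every array, with 5.56 in siOCT1 with DHT and 7.26 in siOCT1 with vehicle, against 4.64 in siControl with DHT and 6.01 in siControl with vehicle. The order of its 4 arrays differed from that of PCDH11X only in siOCT1 with DHT and siControl with vehicle, and it was not called (adjusted p = 0.0918). The RefSeq promoter windows of both genes had 298 of 300 bases in common, 99.3%, and their transcripts are known to be near-identical, so the 2 probe sets may read the same RNA. The beta genes also have closely similar coding sequences, and probe sequences were not used here, so the signal of any one of them may include paralogs. The part of such shared signal in the differences was not tested. The other 9 non-clustered genes below background ranged from 2.29 to 7.10. PCDH9 and PCDH18 were among them, with values from 2.89 to 3.80 and from 4.78 to 6.13.

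Fewer members differed with DHT than with the siRNA. Over all 29, 1 was at least 1.5-fold higher and 3 lower under both siRNAs, against 3.08% and 3.1% of all genes, and all 4 were non-clustered and among the 15 measured members (background 4.86% higher and 4.37% lower). The limma fit called 0 members higher and 1 lower for ligand, against 0.679% and 0.305% of measured genes. At an unadjusted p below 0.05 there were 6 of the 15 measured members. The share of all measured genes at that level was not counted, so nothing is read from the 6. The member called was PCDH11X, with a fitted log2 difference of -2.36 (limma adjusted p = 0.0278, or 0.505 with values raised to the highest background). It was 5.12-fold lower with DHT in siOCT1 cells. In siControl cells the DHT value was below background and the vehicle value only just above its own, so no fold is given. PCDH11Y stood at -1.70 in siOCT1 and -1.37 in siControl cells with both pairs below background (adjusted p = 0.167). PCDH7 was 3.01-fold lower with DHT in siOCT1 cells and 1.72-fold lower in siControl cells, and did not pass the limma fit (adjusted p = 0.159), though it did with arrays centred on negative controls (adjusted p = 0.0486). Raised to the highest background, it stood at -1.18 for ligand and did not pass (limma adjusted p = 0.3).

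PCDH20 was the member higher with DHT. It passed the filter only through siControl with DHT, and PCDH11Y only through siOCT1 with vehicle, so their DHT results are a description. Both siOCT1 values of PCDH20 lay below background, and in siControl cells DHT gave at least 2.61 times the vehicle signal. The limma fit did not call it (adjusted p = 0.14), but did with arrays centred on positive (adjusted p = 0.0308) or negative controls (adjusted p = 0.0207). Raised to the highest background, PCDH20 stood at 0.31 for ligand and was not called (limma adjusted p = 0.601). No beta gene passed 1.5-fold under both siRNAs in either direction, and limma called 0 of the 10 measured beta genes. Unadjusted, 1 of them had p below 0.05, again with no count over all genes. The median DHT difference of the 10 was 0.21 in siOCT1 and 0.43 in siControl cells. PCDHB2 was 1.17-fold higher with DHT in siOCT1 cells and 2.90-fold higher in siControl cells. PCDHB8 was 1.35-fold lower with DHT in siOCT1 cells and 1.75-fold higher in siControl cells, a difference between responses that was not tested.

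**Figure D4:**
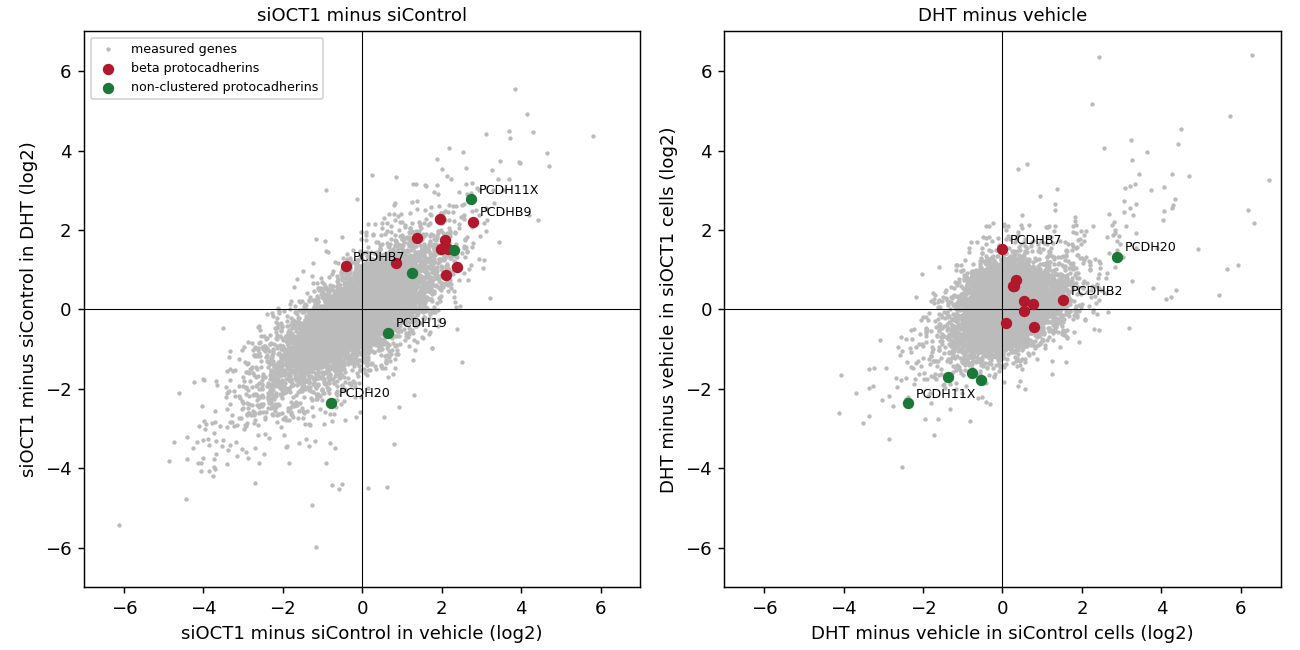
Left, siOCT1 minus siControl (log2) in vehicle (x axis) and in DHT (y axis). Right, DHT minus vehicle (log2) in siControl (x axis) and in siOCT1 cells (y axis). Grey points are 8843 measured genes and coloured points the 15 measured protocadherins. All measured beta genes but PCDHB7 lie in the upper right of the left panel, and PCDH11X, lower left, and PCDH20, upper right, stand furthest of the members from the origin in the right panel.

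Genes that act with protocadherins were read from lists chosen by role. Of 15 regulators of promoter choice and chromatin at the clusters, 14 were measured, and limma called 1 higher and 2 lower with siOCT1 (median difference 0.01). Over all measured genes 9.1% were called higher and 15.3% lower, so the counts of this list, and those of the WAVE and partner lists, which had at most 1 call each way, are near that share and are no result about the lists. The cohesin ring subunit SMC1A fell, with 9.28 in siOCT1 with DHT and 8.98 in siOCT1 with vehicle, against 11.72 in siControl with DHT and 11.50 in siControl with vehicle (adjusted p = 0.00208). The cohesin subunit STAG1 fell, with differences of -1.02 in DHT and -1.27 in vehicle (adjusted p = 0.0222), and its paralog STAG2 rose by 0.76 and 1.71 (adjusted p = 0.0227). CTCF stood at -1.02 in DHT and -0.48 in vehicle and did not pass (adjusted p = 0.0855). SMCHD1, a chromatin repressor of the clusters, stood at -0.15 and -0.01. 

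Of 7 measured members of the WAVE complex, which binds several non-clustered protocadherins and drives actin branching, ABI1 rose by 0.82 in DHT and 1.14 in vehicle (adjusted p = 0.0276) and WASF3 fell, with -1.40 and -1.34 (adjusted p = 0.0148). Among 7 measured genes of shedding and gamma-secretase, which cleave protocadherins, 0 were called. NLGN1, neuroligin-1, was the 1 gene called among 6 measured kinases and adhesion partners, higher by 1.11 in DHT and 1.32 in vehicle (adjusted p = 0.0176). Of the other large non-classical cadherins 2 of 14 on the array were measured, FAT1 and FAT4, and 0 were called. For ligand, limma called 0 genes of any of these lists.

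Markers were read for the cell type. All 6 luminal prostate epithelial markers lay above background on every array, among them EPCAM and HOXB13, with 1 lower in siOCT1 (KRT8). None of the 4 immune and endothelial markers exceeded background on any array. Limma called 1 of 3 measured stromal markers, ACTA2, higher by 1.46 in DHT and 2.13 in vehicle (adjusted p = 0.0155). COL1A2, the other stromal marker above background on any array, stood at -0.69 in DHT and -0.17 in vehicle. Of 4 measured neural markers limma called 1, the neuronal microtubule gene MAP2, higher by 1.47 and 1.57 (adjusted p = 0.00839). SYP, the synaptic vesicle protein synaptophysin, stood at -0.38 in DHT and -0.39 in vehicle, and CHGB and SNAP25 were not called. The log2 signals of the 6 stromal markers summed to 36.8 and 34.5 in siOCT1 cells with DHT and vehicle, against 32.9 and 30.3 in siControl cells with DHT and vehicle, with VIM, COL1A1, DCN and LUM below background on every array. Those of the 8 neural markers on the array summed to 50.8 and 51.5 in siOCT1 cells with DHT and vehicle, against 48.2 and 50.9 in siControl cells with DHT and vehicle, with CHGA, ENO2, NCAM1 and INSM1 below background throughout. Their part in the protocadherin differences was not tested. Over all measured genes limma called 9.1% higher and 15.3% lower for siRNA. The single calls in the luminal, stromal and neural lists are therefore no result about cell type.

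For the brightest always-detected member of each subfamily, the measured genes with the closest profile over the 4 arrays were found by root mean square distance after centring each gene, among 4377 genes with a range above 1. For PCDHB11 they were SLC44A5, ZFHX4 and EVL, at distances of 0.097, 0.110 and 0.130. EVL, an actin regulator, had 9.73 in siOCT1 with DHT and 9.46 in siOCT1 with vehicle, against 7.48 in siControl with DHT and 7.26 in siControl with vehicle. For PCDH7 they were DNAAF9, ABCC5 and GLI3, at 0.082, 0.111 and 0.156. ABCC5, an ABC transporter, had 8.30 in siOCT1 with DHT and 9.63 in siOCT1 with vehicle, against 6.73 in siControl with DHT and 7.60 in siControl with vehicle.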

How the data were processed

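Total RNA of 4 22Rv1 cultures was labelled for whole-transcript arrays, with 1 array in each group (per the labels). The deposited log2 signals come from RMA, and the submitters' processing notes also name Affymetrix Expression Console. Their versions and the genome build are not given in the sources used here. Quantile normalization within RMA forces the arrays to a common distribution, so a global change is not visible, and 327 to 379 values per array exceed 16, beyond a 16-bit scanner's range, so a fold is one of deposited values. Precision is limited by the number of arrays.

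Of 24351 probe sets, 17709 had 1 gene symbol, 0 had several and 3739 transcript probe sets were unnamed. These gave 17687 genes, with the brightest probe set kept where there were several. A gene was measured where its highest value exceeded 6.51. Size counts used 1.5-fold, and limma 3.58.1 in R 4.3.3 fitted siRNA and ligand as additive terms over 8843 measured genes (prior degrees of freedom 5.85, residual 1, intensity trend, Benjamini-Hochberg, threshold 0.05). The fit was tested on simulated data with constant Gaussian noise and no siRNA-by-ligand difference. That test does not bear on the error of the fit here. Members above background on at least 1 array were named with their values, and dimmer members given with values were chosen after those were seen. The 3 measured genes closest in profile were named for the highest always-detected member of each subfamily. The members, lists and tests were chosen with earlier results of these data known, and the 9-base word after the promoters were read. Sequences are from RefSeq. Python 3.11.15, numpy 2.4.6, pandas 2.3.3 and matplotlib 3.10.9 did the rest. Alternatives are given at the end, and centring on negative controls was added after seeing the data.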

Additional observations from a re-analysis of the deposited data

Results flagged for a closer look

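PCDH19, a non-clustered protocadherin gene, differed in opposite directions with the siRNA, past 1.5-fold in both ligand states. The difference of siOCT1 minus siControl was -0.59 in DHT and 0.65 in vehicle. Its values were 5.32 in siOCT1 with DHT and 7.10 in siOCT1 with vehicle, against 5.91 in siControl with DHT and 6.45 in siControl with vehicle, all below background. The difference between ligand states was not tested.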

How the results depend on the processing

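No paired analysis was possible because each group held 1 array. Of 15 measured members, 12 were higher with siOCT1 in both ligand states (the limma alternatives do not bear on this count). It was 9 of 15 with the 2-fold rule (4.98% of measured genes) and 17 of 29 with no filter (7.94% of all genes). With the 2-array filter it was 8 of 8 (11.8% of the genes kept). PCDHB9, PCDHB13 and PCDHB16 passed that filter only through siOCT1 arrays, so its count and siRNA median are a description. Centred on positive or negative controls, the count of higher members was 12 of 15 (14.4% and 11.9% of measured genes). With values raised to the highest background it was 6 (PCDH7 and 5 beta genes), against 9.05% of measured genes. The limma siRNA count was then 6, against 10, and the limma ligand count 0. Unadjusted, 1 member had p below 0.05 for ligand, with no count over all genes. Under that setting 5 of the 15 members lay at the floor on every array and were not fitted, the counts of lower members with siOCT1 and of members higher and lower with DHT were 0, 0 and 1, against 1, 1 and 3, and the medians were 0.17 for siRNA and 0.00 for DHT, against 1.73 and 0.36. The 1 member lower with siOCT1, PCDH20, was also 0 with the 2-fold rule, with genes above background on at least 2 arrays and with centring on positive controls. Requiring background on 2 arrays left 8 members, with 0 higher with DHT and a siRNA median of 1.91. The siRNA median was 1.0 with no filter, where the DHT median was 0.09, and 1.83 centred on positive controls. The limma ligand count was 2 centred on positive controls and 3 centred on negative controls, against 1. Without the filter limma called 12 members for siRNA, with PCDHB3 and PCDHB15 added, and without the trend 12, with PCDHB12 and PCDH11Y added. PCDHB12, PCDH11Y and PCDH20 entered the fit only through arrays of the siRNA group where they are high, so their calls are a description. Centring on negative controls was chosen after seeing the data. Over all measured genes limma made 2158 siRNA calls (1405 raised to background) and 87 ligand calls, against 57 with no filter, 30 without the trend, 9 raised to background, 293 centred on positive and 321 on negative controls. The causes were not tested, beyond the smaller number of members left by the 2-array filter. Signal near background limits what can be said of the 17 members below it on every array.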
